A study of Mus musculus and Homo sapiens with 17 samples.

Results

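The genes that copy DNA were read across skin tumours of mice and across a human squamous carcinoma line with and without DUSP1. The set held 37 genes, chosen by name: those that load and start the replicative helicase, those that run the replication fork, those that make deoxynucleotides, the cyclin E and E2F genes that open S phase, and those that rebuild chromatin behind the fork. Each of the 37 names matched 1 row of the mouse table and, in capitals, 1 row of the human table. All 37 passed the filter on low counts in both, among 22371 mouse genes and 18090 human genes tested.

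The study compared lesions of wild-type (WT) and Dusp1 knockout (KO) mice, and control and DUSP1 KO tumour cells, to find genes whose expression differs. The mice were of the C57BL/6-129 strain. The labels state DMBA/TPA for all 11 mouse libraries, a carcinogen and a tumour promoter that together give papillomas and squamous cell carcinomas (SCC) of the skin, so the skin libraries came from treated animals too. WT skin and WT SCC had 3 libraries each, and the lesions labelled Dusp1 KO were papilloma, with 3 libraries, and SCC, with 2. Keratinocytes are the labelled cell type, but RNA was taken from whole frozen sections with all their cells. The human libraries were of A431, an established line from a squamous carcinoma: 3 carried sgRNA_Tomato, a guide with no target gene of the cells' own, and 3 carried sgRNA_DUSP1. In both arms 100000 cells were injected into the skin of host mice and grew for 3 weeks, after which mouse cells were depleted. The labels do not say whether the KO line was 1 clone, how the mouse gene was deleted, or whether replicates were separate animals or tumours. The p-values therefore speak only of the spread among libraries. That spread may be technical except between libraries that differ in Y-linked RNA, as given below. There was no KO skin, no WT papilloma and no untreated skin.

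DNA replication is prepared in G1, when the origin recognition complex, CDC6 and CDT1 load the ring of MCM2 to MCM7 onto DNA. At the start of S phase CDC45 and the GINS complex turn that ring into a moving helicase, and polymerases loaded on the PCNA clamp copy both strands. E2F factors drive most of these genes, cyclin E with its kinase releases E2F from the RB proteins, and in the epidermis this programme is active mainly in dividing basal keratinocytes.

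Because these genes are known E2F targets, their promoters were also searched for E2F words. The words were TTTCCCGC, TTTGGCGC, TTTCGCGC and TTTGCCGC, on both strands, in RefSeq windows from 250 bases before to 50 bases after a gene's start (GRCm38.p6). Words that overlapped were each counted as a match. A window was found for 31 of the 37 genes, and 15 of these (48.4%) held at least 1 word, against 704 of 27025 genes in the table (2.60%). By window, 15 of 39 held a word, against 744 of 32851 (2.26%). The stretches below carry the words in capitals and are written in the direction of the gene, 5′ to 3′. They show the MCM ring, the primer polymerase, the clamp loader and the origin licensing genes. The first 2 lie before the annotated gene, and the others are shortened to 30 bases around the word.

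Mcm6: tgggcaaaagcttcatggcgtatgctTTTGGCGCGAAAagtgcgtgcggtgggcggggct
Pola1: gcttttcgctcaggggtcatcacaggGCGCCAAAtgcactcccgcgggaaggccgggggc
Orc1: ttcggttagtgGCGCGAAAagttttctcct
Cdc6: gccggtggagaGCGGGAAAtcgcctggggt
Mcm7: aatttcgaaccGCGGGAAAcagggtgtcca
Rfc3: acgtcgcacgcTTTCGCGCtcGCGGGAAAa

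The Mcm6 stretch is chr1:128359782-128359841 on the minus strand. Its capitals hold 2 overlapping words, one read on each strand, and a further word lies 47 bases before the Mcm6 start. The Pola1 stretch is chrX:93632260-93632319 on the minus strand, with its word 138 bases before the start. Orc1 (chr4:108579416-108579445) and Cdc6 (chr11:98908002-98908031) are on the plus strand, and Mcm7 (chr5:138172030-138172059) and Rfc3 (chr5:151651200-151651229) on the minus strand. In Rfc3 the words lie 10 bases before the start and at the start itself. A word in a window is a match of letters only, and no word was found in the windows of Mcm2, Prim1, Pcna, Rrm1, Rrm2, Tyms, Tk1, Ccne1 or E2f1. Of other lists searched the same way, the further replication machinery had a word in 9 of 31 genes (29%), regulators of the G1/S step in 8 of 22 (36.4%), S phase checkpoint genes in 3 of 13 (23.1%), mitosis markers in 1 of 17 (5.88%) and nucleotide supply genes in 0 of 11. Start sites of 16 of the 31 genes were also GENCODE start sites.

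Library totals ran from 34.4 to 47.9 M counts in mouse and from 41.2 to 53.5 M in A431 (units of 1e6 counts). Levels are given as counts per 1e6 counts of the normalised library size (CPM), and each difference as a log2 fold change ± its standard error from edgeR's quasi-likelihood fit, called where the Benjamini-Hochberg adjusted p over all genes was under 0.05. DUSP1 fell in the A431 KO libraries, from 471, 467 and 485 CPM to 73.6, 71 and 77.1. In the mouse libraries labelled KO Dusp1 was not lower: 129, 109 and 110 CPM in papilloma and 139 and 174 in SCC, against 94.1, 109 and 52.4 in WT skin and 73.3, 83.7 and 66.6 in WT SCC. The mouse groups are therefore named by their label throughout. Counts per gene cannot show which part of a transcript was present. WT skin replicate 3 stood apart: it held the highest level of its group for 35 of the 37 genes, with a summed level of 1111 CPM against 697.8 and 783.5. It also held 7 counts of 4 Y-linked genes where the other skin libraries held 6624 and 9552, so the skin group mixed libraries with and without Y-linked RNA. All WT SCC and KO-labelled papilloma libraries held 0, so neither comparison with skin was balanced for it, and its part was not tested. In KO-labelled SCC replicate 1 was the higher library for 36 of 37 genes, and Y-linked counts were 0 in replicate 1 and 4779 in replicate 2.

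The summed level of the 37 genes was 1349 to 1414 CPM in WT SCC, 1541 to 1685 in KO-labelled papilloma and 1861 to 2156 in KO-labelled SCC, each above the 697.8 to 1111 of WT skin. These ranges did not overlap, and the order skin, WT SCC, KO-labelled papilloma, KO-labelled SCC held for every library. In A431 the sums were 2239 to 2277 CPM in control and 2217 to 2280 in DUSP1 KO, and they overlapped. In such bulk RNA, more cells in S phase and more transcript in each cell cannot be told apart.

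**Figure D1:**
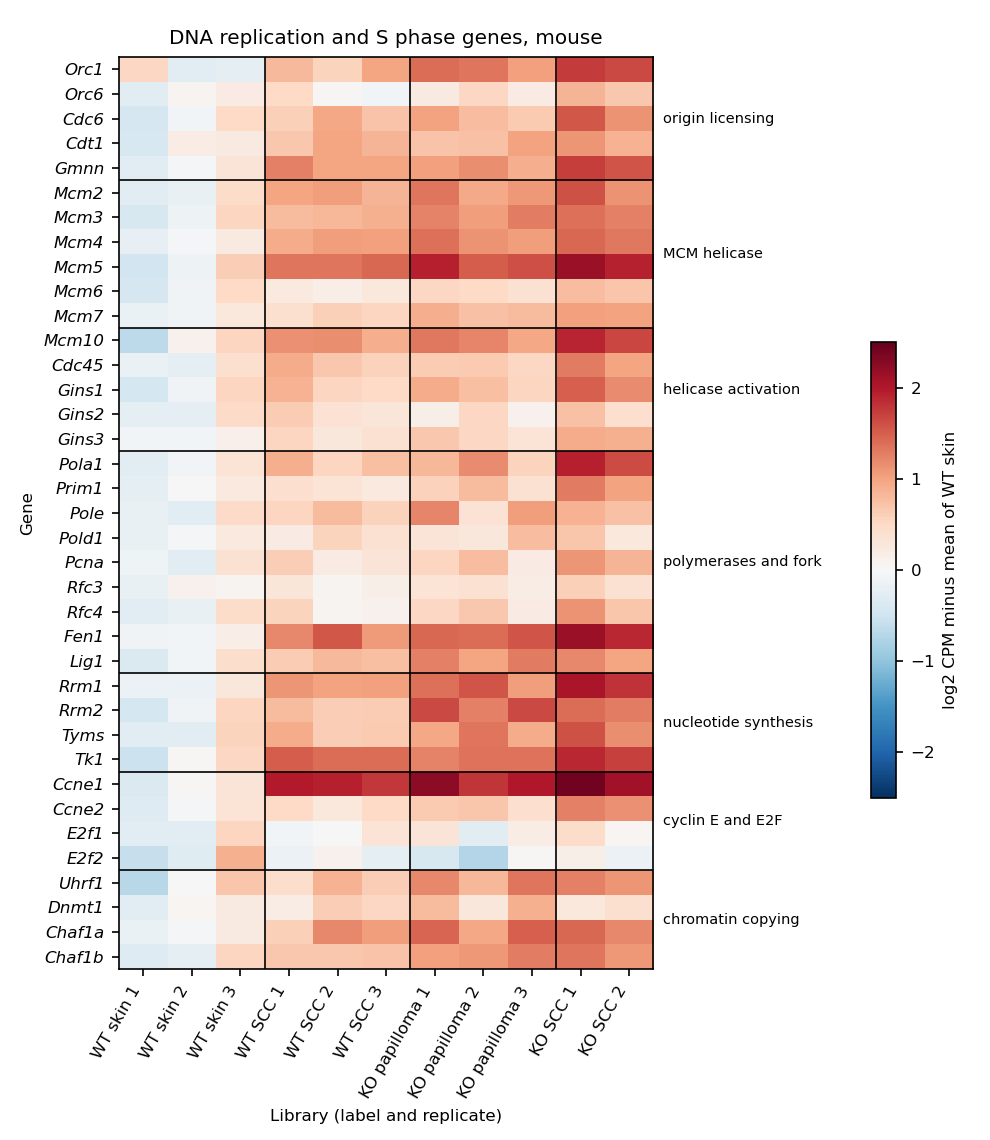
Level of each of the 37 genes in the 11 mouse libraries, as log2 CPM minus the gene's mean over the WT skin libraries (red higher, blue lower), in rows ordered by role and columns by group and replicate. The third skin library is higher than the other skin libraries for most genes, and the first SCC library labelled KO has the darkest column.

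In WT SCC, 21 of the 37 genes rose against WT skin, none fell and 16 did not pass the test, while 40.5% of all genes tested were called in either direction (16.9% higher and 23.6% lower). The median log2 fold change of the 37 was 0.63, against −0.157 over all genes tested, and 36 of them lay above 0, as 44% of all genes did. All 3 SCC libraries lay above all 3 skin libraries for 24 of the genes, as they did for 24.8% of all genes, and below them for none (29.9% of all genes). Of the rising genes, 4 were of 5 for origin licensing, 5 of the 6 MCM subunits, 2 of 5 that activate the helicase, 3 of 9 of the polymerases and fork, 4 of 4 of nucleotide synthesis, 1 of 4 of cyclin E and E2F, and 2 of 4 of chromatin copying.

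Cyclin E1 rose the most. Ccne1 (chr7:38097984-38107534, minus strand), the regulatory subunit of the kinase that starts S phase, stood at 5.59, 7.41 and 9.08 CPM in WT skin and 28.7, 28 and 24.6 in WT SCC. The lowest SCC library was above the highest skin library, and the change was 1.88 ± 0.195 on the log2 scale (3.68-fold, adjusted p = 4.91e-05). Its partner in the family, Ccne2, was at 7.15, 8.8 and 11.3 CPM in skin and 12.6, 10.8 and 12.6 in SCC, which overlapped (0.40 ± 0.182, adjusted p = 0.100). E2f1, an activating E2F, was at 6.93, 6.91 and 12.1 CPM in skin and 7.9, 8.24 and 10.6 in SCC, with a change of 0.044 ± 0.262 (adjusted p = 0.906). E2f2, another activating E2F, gave −0.24 (adjusted p = 0.593), at 9.68, 11.6 and 26.5 CPM in skin and 12.9, 15.6 and 12.1 in SCC. Every SCC library lay above skin replicates 1 and 2 and below skin replicate 3 for E2f2. The RNA of both E2F genes thus showed no difference that passed the test, while 21 genes of the set did.

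The licensing factors were higher in SCC. Cdc6, which helps load the MCM ring, was at 4.02, 5.16 and 7.67 CPM in skin and 8.19, 10.7 and 8.97 in SCC (0.72 ± 0.245, adjusted p = 0.0354). Cdt1, its loading partner, was at 7.1, 10.7 and 11.1 CPM in skin and 15.2, 18.6 and 17.1 in SCC (0.82 ± 0.19, adjusted p = 0.00595). Gmnn, which encodes geminin, the inhibitor of Cdt1, rose from 14, 16.5 and 21.2 to 40.6, 33.9 and 33.8 CPM (1.07 ± 0.162, adjusted p = 0.000478). Loaders and the inhibitor of loading were thus all higher in SCC, with no overlap between groups. Orc1, the largest subunit of the origin complex, also rose (0.76), and Orc6 did not pass the test (0.16, adjusted p = 0.508).

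Among the MCM subunits Mcm5 changed most, from 22.2, 28.2 and 47.1 CPM in skin to 78, 78 and 83.2 in SCC (1.29 ± 0.237, 2.45-fold, adjusted p = 0.00155). Mcm2 rose from 21.8, 23.5 and 36.8 to 53, 54.9 and 48.2 CPM (0.93 ± 0.206, adjusted p = 0.00478). Mcm3, Mcm4 and Mcm7 rose by 0.50 to 0.99 on the log2 scale. Mcm6, another subunit of the same ring, gave 0.17 (adjusted p = 0.472), with skin at 35.8, 45 and 66.8 CPM and SCC at 56.2, 53.4 and 56.8. The third skin library was above every SCC library for Mcm6, while for Mcm5 it was below them. In the step that activates the ring, Mcm10 (0.99) and Cdc45 (0.71) rose, and Gins1 (0.59), Gins2 (0.40) and Gins3 (0.40) did not pass the test.

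At the fork, Fen1, the nuclease that trims Okazaki fragments, stood at 0.968, 0.987 and 1.16 CPM in skin and 2.44, 3.13 and 2.21 in SCC (1.32 ± 0.244, adjusted p = 0.00164). Fen1 overlaps Tmem258 and Gm10143 on the other strand, and how reads were counted is not stated in the labels, so its level is uncertain. Lig1, the ligase that joins the fragments, rose by 0.70 and Pola1, the catalytic subunit of the polymerase that starts each fragment, by 0.72. Pcna, the sliding clamp, was at 114, 102 and 160 CPM in skin and 187, 142 and 153 in SCC, and the groups overlapped (0.36 ± 0.203, adjusted p = 0.171). Prim1, Pole, Pold1, Rfc3 and Rfc4 gave 0.17 to 0.60 and did not pass the test either.

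All 4 genes of deoxynucleotide synthesis rose. Tk1, the thymidine kinase of dividing cells, went from 22.6, 33.6 and 47.2 to 94.2, 86.3 and 87.1 CPM (1.37 ± 0.212, 2.59-fold, adjusted p = 0.000535). Rrm1 and Rrm2, the subunits of ribonucleotide reductase, rose by 1.03 and 0.62. For Rrm2 the libraries were 19.5, 25 and 38.7 CPM in skin and 46.1, 40.6 and 41.2 in SCC (SE 0.217, adjusted p = 0.0409), so the third skin library came close to the SCC values. Tyms, which makes thymidylate, rose by 0.68. Of the genes that copy chromatin, Chaf1a (0.97) and Chaf1b (0.63), subunits of the histone chaperone CAF-1, rose. Uhrf1, which reads half-methylated DNA, was at 15.9, 25.5 and 41.5 CPM in skin and 34.7, 46.6 and 39.2 in SCC (0.54 ± 0.282, adjusted p = 0.146). Dnmt1, the maintenance DNA methyltransferase, was at 32.5, 41.2 and 46.4 CPM in skin and 44.9, 61 and 57 in SCC (0.44 ± 0.19, adjusted p = 0.0856), and for both genes the groups overlapped.

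The count of genes called moved with the skin libraries: it was 29 without skin replicate 3 and 14 without skin replicate 2. The call of Cdc6 was lost without skin replicate 1 or 2 or SCC replicate 2 or 3 (adjusted p = 0.0622 to 0.126), and that of Rrm2 without any 1 library except skin replicate 3 (0.0674 to 0.127), while Pcna, Ccne2, Uhrf1 and Dnmt1 passed the test without skin replicate 3.

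RNA levels of cell type markers differed between skin and SCC, where cell number and transcript per cell cannot be told apart. All 6 basal keratinocyte markers (Krt5, Krt14, Itga6, Itgb4, Col17a1, Trp63) rose, and their summed level was 6048 to 13640 CPM in skin and 35830 to 38230 in WT SCC. All 6 fibroblast markers fell (4744 to 36350 CPM against 2322 to 3961), as did all 6 skeletal muscle markers (5259 to 7276 against 5.84 to 120.6). Macrophage markers fell in 5 of 6 (397.4 to 970.9 against 224.9 to 289.4 CPM) and T cell markers in 5 of 6 (29.3 to 61.7 against 9.20 to 13.1). Adipocyte markers fell in 4 of 5 and rose in 1 (1432 to 1929 against 1757 to 2677 CPM), melanocyte markers fell in 3 of 5 (39 to 281.4 against 24.15 to 31.75) and B and plasma cell markers in 2 of 5 tested (473.7 to 546.8 against 182.2 to 192.7). Neutrophil markers rose in 2 of 5 (73.72 to 646.4 against 650.8 to 852.7 CPM). The human genes of this list summed to 1164 to 1228 CPM in A431 control cells, so the list is not particular to neutrophils. Differentiated keratinocyte markers rose in 2 of 7 and fell in 3 (2821 to 4969 against 2377 to 2698 CPM), and endothelial markers rose in 1 of 5 and fell in 2 (185 to 207.9 against 123.9 to 146.1). No marker of these 11 lists was at 0 in all libraries of either group. Their part in the rise of the replication genes was not tested.

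KO-labelled papilloma was compared with the same 3 libraries of WT skin, so lesion and labelled genotype cannot be told apart here, and both comparisons with skin share their reference. Here 28 of the 37 genes rose, none fell and 9 did not pass the test, with 39.6% of all genes called (17.1% higher). The median log2 fold change was 0.85, against −0.223 over all genes tested. It lay above 0 for 36 genes, as for 41.7% of all, and 28 genes lay above skin in every library, as 21.1% of all genes did. All 4 genes of nucleotide synthesis and all 4 of chromatin copying rose, with 5 of 6 MCM subunits, 4 of 5 licensing genes, 4 of 5 that activate the helicase, 5 of 9 at the fork and 2 of 4 of cyclin E and E2F.

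Ccne1 was again the gene with the largest rise, at 34.1, 25.1 and 29 CPM in the papillomas (1.997 ± 0.195, 3.99-fold, adjusted p = 3.84e-05). Mcm5 followed at 118, 87.8 and 94.3 CPM (1.62 ± 0.239, adjusted p = 0.000398), then Fen1 at 2.87, 2.82 and 3.17 CPM (1.503 ± 0.244, adjusted p = 0.000736). Rrm2 stood at 83.7, 63.9 and 83.3 CPM (1.47 ± 0.22, adjusted p = 0.000438) and Rrm1 at 181, 206 and 143 CPM (1.34 ± 0.168, adjusted p = 0.000154). Every papilloma library lay above every skin library for these 5 genes.

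Mcm2 rose by 1.09 on the log2 scale, to 67.2, 51.1 and 56.6 CPM. Gmnn rose by 1.02, to 34.5, 38.2 and 32.1 CPM. Cdt1 rose by 0.80, to 15.5, 15.7 and 19.1 CPM, and Cdc6 by 0.77, to 10.9, 9.29 and 8.52 CPM. For these 4 as well, no papilloma library reached down into the range of skin. Uhrf1, at 58.7, 45.8 and 64.6 CPM, and Dnmt1, at 68.4, 48 and 73.6 CPM, rose here by 1.03 and 0.66 (adjusted p = 0.0146 and 0.0179). Ccne2, at 14.1, 14.5 and 11.9 CPM, rose by 0.57 (adjusted p = 0.0279). Their calls in papilloma and not in WT SCC are not a test of a difference between the lesions, which were of different labelled genotype and were not compared. Pcna was at 178, 210 and 142 CPM (0.49, adjusted p = 0.0742), and E2f1, at 10.4, 6.96 and 9.49 CPM, gave 0.051 (adjusted p = 0.888). The remaining genes that did not pass were Orc6, Mcm6, Gins2, Pold1, Rfc3, Rfc4 and E2f2, between −0.49 and 0.47.

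The calls of Cdc6, Ccne2, Uhrf1 and Dnmt1 in papilloma were lost without 1 library: without skin replicate 1 or papilloma replicate 1 for Cdc6, Ccne2 and Dnmt1, without skin replicate 2 for Cdc6, Ccne2 and Uhrf1, without papilloma replicate 2 for Cdc6 and Ccne2, and without papilloma replicate 3 for Dnmt1 (adjusted p = 0.0521 to 0.0901). Pcna passed without skin replicate 3 (0.0134) or papilloma replicate 3 (0.0429). Basal keratinocyte markers rose in 4 of 6 (35940 to 58450 CPM in sum), fibroblast markers fell in 6 of 6 (1695 to 3679), skeletal muscle in 6 of 6 (6.00 to 7.08), macrophage in 5 of 6 (158.9 to 200.1) and T cell in 5 of 6 (9.75 to 15.1). Differentiated keratinocyte markers rose in 5 of 7, from 2821 to 4969 CPM in skin to 6770 to 9530 in papilloma. Neutrophil markers rose in 3 of 5 (1177 to 3366 CPM in papilloma), while B and plasma cell markers fell in 4 of 5 tested (9.619 to 63.41), adipocyte markers in 4 of 5 (969.3 to 3355), melanocyte markers in 2 of 5 (25.93 to 51.87) and endothelial markers in 2 of 5 (110.5 to 168.2). Their part was not tested here either.

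**Figure D2:**
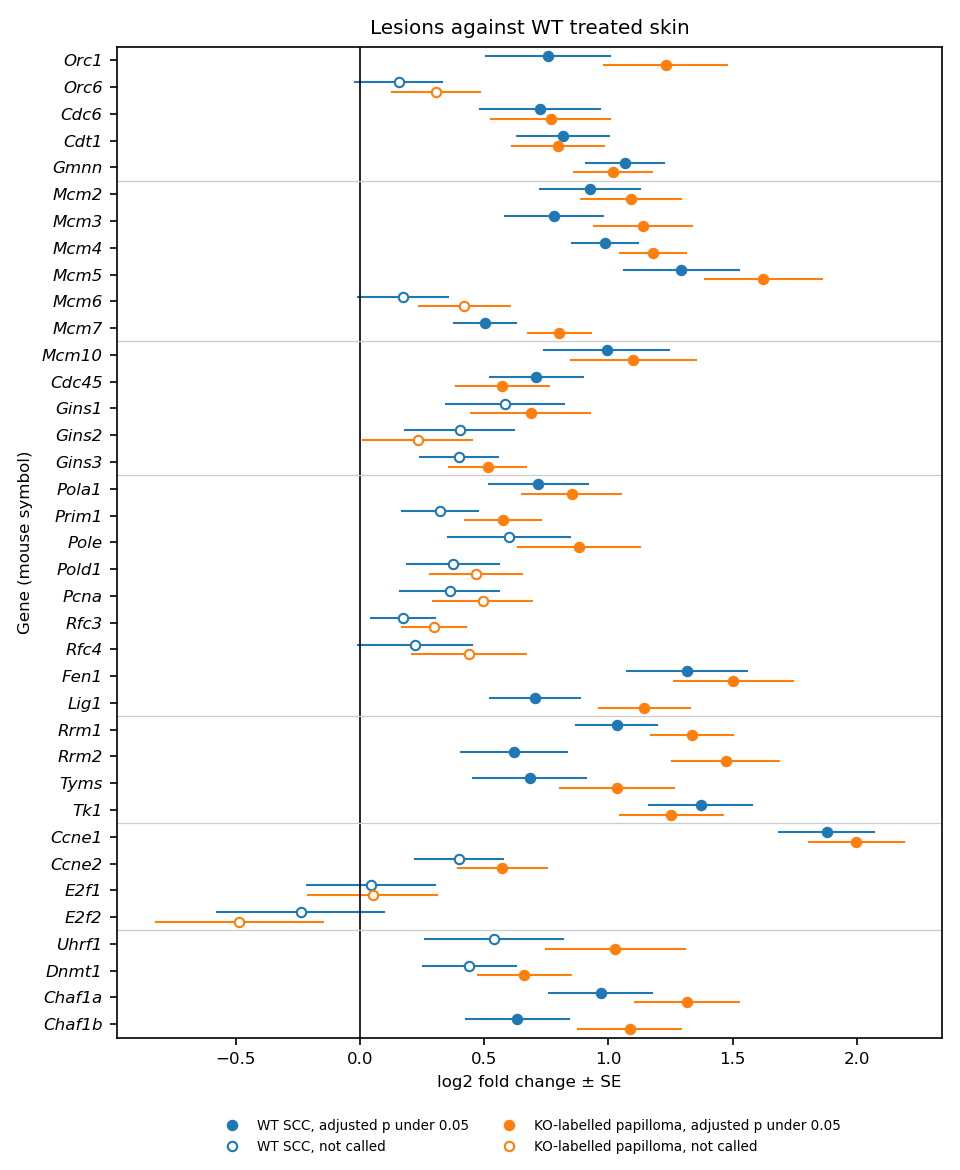
Log2 fold change against WT skin, with its standard error, for each gene in WT SCC (blue) and KO-labelled papilloma (orange), filled where the adjusted p was under 0.05 and grouped by role. Both sets share the 3 skin libraries, Ccne1 is farthest to the right in both, and E2f2, called in neither, is the 1 gene below 0 in both.

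Within the lesions labelled KO, SCC was set against papilloma to ask what differs between the malignant and the benign growth. No gene of the 37 passed edgeR's test, where 64 of 22371 genes were called in all (0.286%, of which 0.0492% higher). At an unadjusted p under 0.05 there were 10, all higher in SCC, and DESeq2 called 2. For neither was the share of all genes counted. The fold changes lay above 0 for 33 genes (45.7% of all genes tested), with a median of 0.31 against −0.0514 over all genes tested. Both SCC libraries were above all papilloma libraries for 19 genes, as they were for 16.1% of all genes tested.

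Pola1 (chrX:93304767-93632155, minus strand) had the largest difference, with 22.8, 29.1 and 18.9 CPM in papilloma and 49.9 and 40 in SCC (0.93 ± 0.222, adjusted p = 0.133). Gmnn was at 56.5 and 50.6 CPM in SCC, above every papilloma library (0.62 ± 0.177, adjusted p = 0.172). The lowest fold changes were those of Dnmt1 (−0.35, adjusted p = 0.459), with 47.2 and 52.5 CPM in SCC, and Rrm2 (−0.19), with 70.6 and 64.7 CPM, and both overlapped with papilloma. The 5 largest differences after Pola1 belonged to Gmnn, Mcm10, Ccne2, Gins1 and Rrm1, between 0.58 and 0.62. Of the cell type markers, 3 of 7 for differentiated keratinocytes fell, with sums of 6770 to 9530 CPM in papilloma and 2350 to 2578 in SCC, and 1 of 5 for melanocytes fell (25.9 to 51.9 against 4.79 to 27.3). Their part was not tested.

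KO-labelled SCC against WT SCC is the comparison of the labelled genotypes within 1 kind of lesion. Here 4 of the 37 genes rose, none fell and 33 did not pass the test, where 7.87% of all genes tested were called (4.48% higher and 3.38% lower). The fold changes lay above 0 for 36 genes (48.8% of all genes tested), Dnmt1 being the exception, and their median was 0.52 against −0.00675 over all genes tested. Both KO-labelled libraries were above all 3 WT libraries for 30 genes, as they were for 22.9% of all genes tested. At an unadjusted p under 0.05 there were 20, and the share of all genes at that threshold was not counted.

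The genes called belong to primer synthesis, deoxynucleotide supply and the S phase cyclin. Pola1 was at 24.2, 18.7 and 21.7 CPM in WT SCC and 49.9 and 40 in KO-labelled SCC (1.06 ± 0.222, 2.09-fold, adjusted p = 0.0178). Prim1 (chr10:128015168-128030037, plus strand), the primase that works in a complex with Pola1, was at 30.1, 28.4 and 26.7 CPM against 55.5 and 45.4 (0.83 ± 0.174, 1.78-fold, adjusted p = 0.0178). Rrm1 (chr7:102441695-102469771, plus strand), the large subunit of ribonucleotide reductase, was at 148, 140 and 142 CPM against 285 and 244 (0.89 ± 0.182, 1.85-fold, adjusted p = 0.0166). For each of these the lower KO-labelled library lay well outside the WT range.

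Ccne2 (chr4:11191351-11204779, plus strand) was at 12.6, 10.8 and 12.6 CPM in WT SCC and 21.4 and 19.7 in KO-labelled SCC (0.78 ± 0.2, 1.71-fold, adjusted p = 0.0397), while Ccne1, at 38.7 and 31.2 CPM, gave 0.37 (adjusted p = 0.305). Pola1 lies on the X chromosome and overlaps Gm14780 on the other strand, and Ccne2 overlaps Ints8 in the same way. For each of the 4 genes both KO-labelled libraries lay above all WT SCC libraries, as for 30 of the 37 in all. The 4 were picked by their test in these same libraries, so this separation adds no support.

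The other genes given by library did not pass. Rrm2, the partner of Rrm1, was at 70.6 and 64.7 CPM (0.67 ± 0.239, adjusted p = 0.111). Pcna was at 265 and 222 CPM (0.60 ± 0.224, adjusted p = 0.125). Gmnn was at 56.5 and 50.6 CPM (0.57 ± 0.177, adjusted p = 0.0729). All of these libraries were above every WT SCC library for the gene. The same held for Cdc6, at 15.9 and 11.8 CPM (0.58, adjusted p = 0.211). It also held for Uhrf1, at 61.6 and 55.1 CPM (0.54, adjusted p = 0.316), and for Mcm2, at 80.5 and 58.2 CPM (0.41, adjusted p = 0.288). Relative to its level, Mcm2 had the widest gap between the 2 KO-labelled libraries among these 6 genes. In contrast, Cdt1, at 20.4 and 17.2 CPM, overlapped with WT SCC (0.15, adjusted p = 0.728). So did E2f1, at 11.5 and 8.57 CPM (0.17, adjusted p = 0.782), and Dnmt1, at 47.2 and 52.5 CPM (−0.12, adjusted p = 0.778). Apart from Orc1, fold changes of the remaining genes lay between 0.095 for E2f2 and 0.75 for Fen1. Orc1, at 9.15 and 8.62 CPM against 4.79, 3.99 and 5.36, had a larger fold change than Prim1, Rrm1 and Ccne2 but missed the threshold (0.91 ± 0.274, adjusted p = 0.0656).

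The number of genes called rests on single libraries and on the fit. It was 0 without WT SCC replicate 2 (adjusted p = 0.0813 to 0.161 for the 4 genes), without WT SCC replicate 3 (0.0577 to 0.0961) or without KO-labelled SCC replicate 1 (0.167 to 0.262), and 3 without WT SCC replicate 1 or KO-labelled SCC replicate 2, where Ccne2 was lost; it was 7 without the filter, 13 with DESeq2 and 20 in a fit of these 2 groups alone. The share of all genes called under these alternatives was not counted. The 2 KO-labelled libraries differed in Y-linked counts and all 3 WT SCC libraries had 0. Y-linked RNA was thus not balanced between the groups, and its part was not tested. Basal keratinocyte markers were called in 0 of 6 (35830 to 38230 CPM against 45340 to 49060, but a median log2 fold change of −0.481). Fibroblast markers were lower in 1 of 6 (2322 to 3961 against 1027 to 3225). Skeletal muscle markers were lower in 1 of 6 (5.84 to 120.6 against 5.34 to 12.3, with 1 marker at 0 in both KO-labelled libraries). B and plasma cell markers were lower in 3 of 5 tested (182.2 to 192.7 CPM against 12.99 to 17.9). No macrophage, T cell, neutrophil, endothelial or adipocyte marker was called. Sums were lower without overlap for macrophage (224.9 to 289.4 against 137.6 to 171.4) and T cell markers (9.20 to 13.1 against 4.88 to 6.90). They were higher without overlap for neutrophil (650.8 to 852.7 against 1215 to 1921) and adipocyte markers (1757 to 2677 against 3155 to 3386). The adipocyte median log2 fold change was −1.95. Differentiated keratinocyte markers were higher in 2 of 7 and lower in 1 (2377 to 2698 against 2350 to 2578), and melanocyte markers lower in 1 of 5 (24.2 to 31.8 against 4.79 to 27.3). Their part was not tested.

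**Figure D3:**
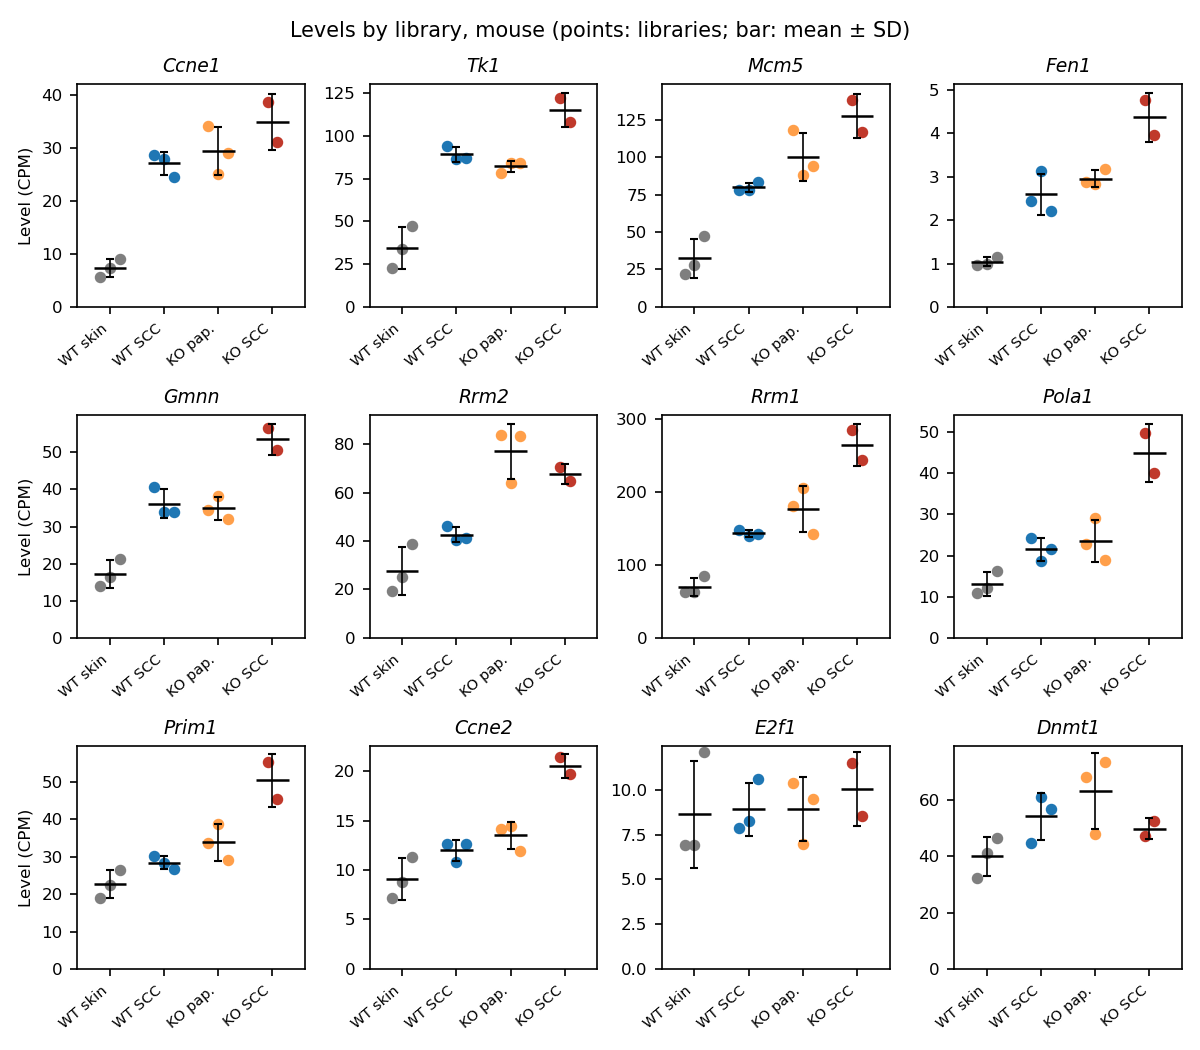
CPM in each mouse library (points) with the group mean and SD (bars), on axes that start at 0, for genes of every role except helicase activation. Ccne1 and Mcm5 separate skin from all lesions, Pola1 and Prim1 are highest in the SCC labelled KO, and E2f1 overlaps in all groups.

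In A431 DUSP1 KO cells the genes of the set were called in both directions, at about the share of all genes tested. Of the 37 genes 6 rose, 11 fell and 20 did not pass the test, where 47.6% of all genes tested were called (23.1% higher and 24.5% lower). The median log2 fold change was −0.0415, against 0.00645 over all genes tested, and 14 genes lay above 0 (50.7% of all genes tested). All 3 KO libraries were above the controls for 8 genes (26.8% of all genes tested) and below them for 13 (28.2%). The 17 calls of 37 are thus near the background share, and the changes were small, between −0.70 and 0.42.

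The falls of largest fold were those of CCNE2, RRM2 and GINS1. CCNE2 was at 7.23, 8.46 and 7.41 CPM in control and 5.35, 4.86 and 3.99 in KO (−0.70 ± 0.122, 1.63-fold lower, adjusted p = 0.000133). RRM2, the small subunit of ribonucleotide reductase, was at 63.8, 65.5 and 65.1 CPM against 42, 43.1 and 41.7 (−0.62 ± 0.0492, 1.53-fold lower, adjusted p = 1.81e-08). GINS1 was at 50.2, 51.7 and 52.3 CPM against 37.1, 39.4 and 38.5 (−0.42 ± 0.0519, adjusted p = 3.39e-06). For these 3 the gap between the groups was wider than the spread within either.

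POLA1 was at 37.6, 40.7 and 39.7 CPM in control and 30.2, 30.2 and 30.9 in KO (−0.37 ± 0.0556, adjusted p = 3.04e-05). TYMS was at 10.8, 12.4 and 11 CPM against 10.4, 8.65 and 7.52 (−0.37 ± 0.109, adjusted p = 0.0102), a narrow separation, and its call was lost without control replicate 2 (0.0622) or KO replicate 3 (0.0582). GMNN was at 25.5, 25.8 and 26.2 CPM against 21.7, 22.2 and 21 (−0.26, adjusted p = 0.00196). UHRF1 was at 44.2, 43.4 and 42.7 CPM against 35.9, 38.7 and 37.7 (−0.21, adjusted p = 0.00324). The remaining falls were CDC45 (−0.31), MCM5 (−0.23), E2F2 (−0.22) and MCM6 (−0.13).

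TK1 rose most, from 126, 123 and 132 CPM to 162, 174 and 173 (0.42 ± 0.0483, 1.33-fold, adjusted p = 1.84e-06), so the thymidine salvage kinase was higher where RRM2 and TYMS were lower. POLE, the catalytic subunit of the leading-strand polymerase, rose from 83.3, 85.2 and 81.9 to 93.7, 114 and 114 CPM (0.36 ± 0.064, adjusted p = 0.000169). PRIM1 was at 5.05, 5.26 and 5.91 CPM against 6.93, 7 and 5.95 (0.29 ± 0.113, adjusted p = 0.0406), and its highest control nearly reached its lowest KO library. ORC6 was at 22.9, 24.7 and 22 CPM against 26.7, 26.8 and 26.4 (0.20 ± 0.0629, adjusted p = 0.0140). MCM2 was at 119, 115 and 108 CPM against 123, 132 and 131 (0.17 ± 0.0506, adjusted p = 0.0109), and MCM4 rose by 0.14.

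Of the 6 genes of the MCM ring, MCM2 and MCM4 were called higher and MCM5 and MCM6 lower, and MCM3 (0.016) and MCM7 (0.11) were not called. In this comparison 47.6% of all genes tested were called. The calls of PRIM1 (adjusted p = 0.0901 to 0.166), ORC6 (0.0729 and 0.0870) and MCM2 (0.0843) were lost without 1 library: control replicate 1 or 2 or KO replicate 1 or 2 for PRIM1, control replicate 1 or 3 for ORC6, control replicate 3 for MCM2. PRIM1 and ORC6 were also not called without the filter or by DESeq2, which moves their calls out of the 6.

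Several central genes gave no difference that passed the test. PCNA was at 233, 234 and 233 CPM in control and 227, 215 and 219 in KO, all lower (−0.084 ± 0.0432, adjusted p = 0.121). The loading factor CDC6 was at 44.7, 46.4 and 47.4 CPM against 47.2, 47 and 46.7. Its partner CDT1 was at 32.9, 32 and 36.4 CPM against 34.1, 34.8 and 36. Neither gene separated the groups, while GMNN, which restrains CDT1, was lower in every KO library. CCNE1 was at 7.09, 6.36 and 6.47 CPM against 6.2, 6.28 and 6.57, beside the fall of CCNE2. E2F1 was at 31.8, 30.2 and 32.4 CPM against 31.7, 31.2 and 28.4. DNMT1 was at 76, 74.2 and 75.2 CPM against 74.6, 80.1 and 82.1. For CDC6, CDT1, CCNE1, E2F1 and DNMT1 the groups overlapped, and their log2 fold changes lay between −0.062 and 0.071. PCNA and DNMT1 passed without KO replicate 1 (adjusted p = 0.0109 and 0.0475).

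**Figure D4:**
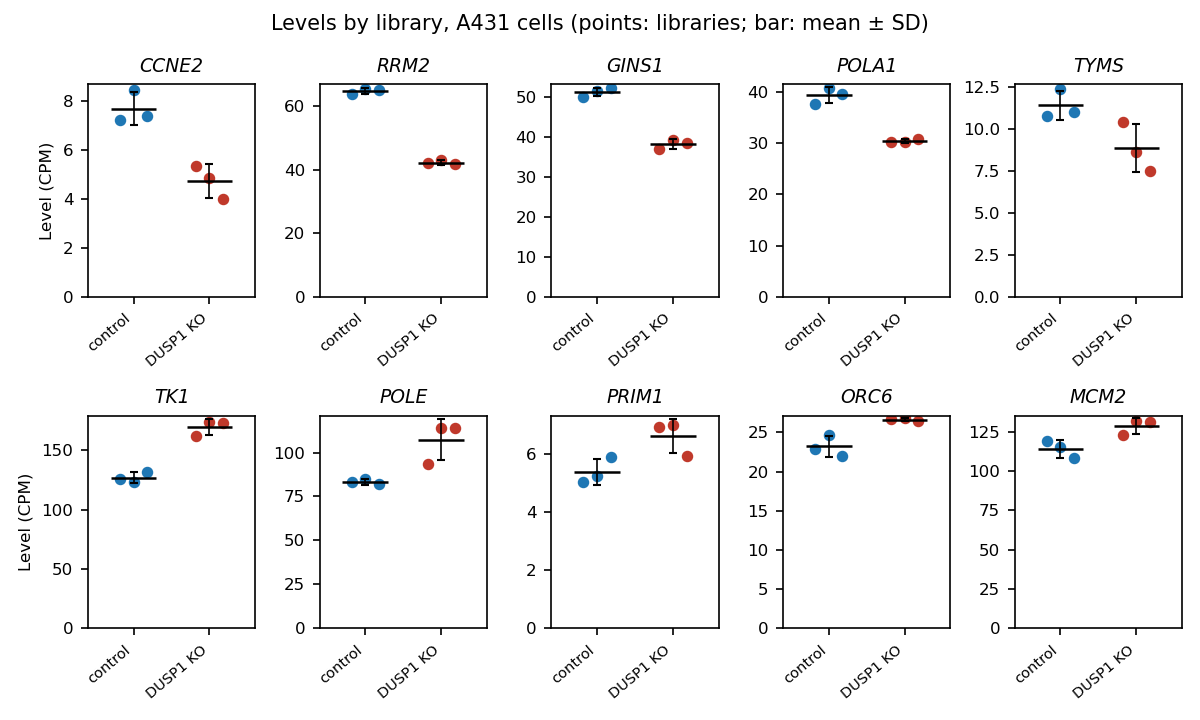
CPM in each A431 library (points) with the group mean and SD (bars), on axes that start at 0, for the 5 genes of the set with the largest falls (upper row) and the 5 with the largest rises (lower row) among those called. The control and KO libraries do not overlap in any panel, and RRM2 and GINS1 show the widest gaps for their spread.

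Further lists of the wider S phase programme were counted in the same comparisons. Over all genes tested, 16.9% were called higher and 23.6% lower in WT SCC against skin, 17.1% and 22.4% in papilloma against skin, 4.48% and 3.38% in KO-labelled SCC against WT SCC, and 23.1% and 24.5% in A431. Of 37 further genes of the replication machinery, 14 rose and none fell in WT SCC against skin, among them Mcmbp (0.89), which binds the MCM ring, Prim2 (1.01), the partner of Prim1, and Dbf4 (0.98), which activates the origin kinase. In KO-labelled papilloma 20 rose and none fell. In KO-labelled SCC against WT SCC 6 rose and none fell: Hells (1.02 ± 0.216, adjusted p = 0.0186), a chromatin remodeller, Orc2 (0.91), Wdhd1 (0.98), Cdc7 (0.74), Pole3 and Mtbp. In A431 4 rose and 11 fell, with RPA1 (0.47) and HELLS (0.47) higher and RFC1 (−0.34) and DNA2 (−0.33) lower, so that its 15 calls of 37 were near the share over all genes (47.6%). KO-labelled SCC against papilloma, where 0.286% of all genes tested were called, gave no call in any of these lists.

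Of 13 genes of nucleotide supply, 5 rose and 1 fell in WT SCC, led by Shmt1 (1.09) and Gart (0.82), with Rrm2b, the p53-driven reductase subunit, lower (−0.61). In papilloma 7 rose and 1 fell, and in KO-labelled SCC against WT SCC none was called. In A431 3 rose and 7 fell: SAMHD1, which degrades deoxynucleotides, fell from 42.2 to 24 CPM (−0.82 ± 0.057, adjusted p = 3.39e-09), GART fell (−0.49), and IMPDH2, which feeds guanine nucleotide synthesis, rose from 134 to 205 CPM (0.61).

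The G1/S regulators changed in both directions. In WT SCC 13 of 30 rose and 5 fell, with Cdk6 (1.79), Ccnd1 (1.66) and Myc (1.42) higher and Cdkn2c (−1.58), an inhibitor of Cdk4 and Cdk6, lower. In papilloma the counts were 13 and 5 as well, and E2f8, a repressing E2F, rose from 6.18 to 31.7 CPM (2.36 ± 0.264, adjusted p = 7.94e-05), beside the uncalled E2f1 and E2f2. In KO-labelled SCC against WT SCC, Tfdp1 (0.52), the DNA-binding partner of E2F, rose and 2 kinase inhibitors fell, Cdkn1c from 2.83 to 0.793 CPM (−1.83 ± 0.405, adjusted p = 0.0221) and Cdkn2b from 29.6 to 18.8 CPM (−0.66 ± 0.154, adjusted p = 0.0284). In A431 5 of 29 rose and 13 fell, among them CCNA2 (−0.54), FBXW7 (−0.59), CDK6 (−0.49) and RB1 (−0.54).

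Of 18 checkpoint and fork protection genes, 9 rose in WT SCC and 11 in papilloma and none fell, with Blm, a helicase that protects stalled forks, higher in both (1.07 and 1.25). None of the 18 was called in KO-labelled SCC against WT SCC. In A431 7 of 17 rose and 6 fell, with FANCD2 (0.60), RAD9A (0.57) and CHEK1 (0.47) higher and FANCI (−0.35) lower. Mitosis markers, which follow S phase, rose in 12 of 20 in WT SCC and in 16 of 20 in papilloma, and none fell. In KO-labelled SCC against WT SCC 3 rose: Ttk (1.15 ± 0.176, adjusted p = 0.00477), Kif20a (0.90) and Bub1 (0.996). Their summed level was 310.9 to 779.5 CPM in skin, 982.8 to 1084 in WT SCC, 1074 to 1159 in papilloma and 1489 to 1754 in KO-labelled SCC.

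In A431 the mitosis markers fell in 16 of 20 and rose in 1, with sums of 1448 to 1472 CPM in control and 1133 to 1140 in KO. MKI67, the proliferation antigen, fell from 171 to 109 CPM (−0.65 ± 0.0477, adjusted p = 6.23e-09), KIF20A by 0.66, CENPE by 0.62 and CENPF by 0.60 on the log2 scale. The summed level of the 37 replication genes in the same libraries overlapped between control and KO, as given above. Of the human cell type markers in these cells, those of fibroblasts fell in 4 of 4 tested (126.3 to 127.2 CPM in control and 75.8 to 87.9 in KO, with 1 marker at 0 in all controls), and those of differentiated keratinocytes fell in 3 of 6 and rose in 1 (24100 to 24690 and 16290 to 18020). Basal keratinocyte markers rose in 2 of 6 and fell in 1 (45460 to 48950 and 47090 to 49070). Neutrophil markers rose in 1 of 3 tested (1164 to 1228 and 1191 to 1260), levels of a carcinoma line that do not stand for neutrophils. T cell markers rose in 2 of 3 tested (1.207 to 1.495 and 2.493 to 3.511). B and plasma cell markers rose in 1 of 1 tested, skeletal muscle in 1 of 2 and melanocyte in 1 of 2. No macrophage, adipocyte or endothelial marker was called. Endothelial markers summed to 0.388 to 0.662 and 0.426 to 0.664 CPM. The part of these markers in the result was not tested.

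The loss of DUSP1 in A431 and the KO label in mouse SCC can be set side by side for the 37 genes, in comparisons that share no library. For 13 genes (35.1%) the fold change was above 0 in both, and for 23 (62.2%) it was above 0 in mouse and below 0 in A431. Among the 11862 genes tested in both tables under the same symbol, the shares were 20.7% and 28.6%. In mouse 36 of the 37 lay above 0, so their 2 shares mostly restate the A431 split, with 14 above 0. They are not a like comparison with all genes, and they show no link between the systems. In 7 genes (Orc6, Mcm2, Mcm4, Mcm7, Prim1, Tk1 and Chaf1a) every KO or KO-labelled library was above every control in both (18.9%, against 6.85% of the genes with a shared symbol). That count too depends on each comparison taken alone, with 30 of the 37 above in mouse and 8 in A431. Prim1 was called as higher in both, but none of the 4 mouse calls was kept under every alternative, nor was that of PRIM1 in A431. Pola1, its partner, was called higher in mouse (1.06) and lower in A431 (−0.37), and Ccne2 likewise (0.78 and −0.70). Rrm1, called in mouse (0.89), gave −0.031 in A431 (adjusted p = 0.595). Whether the effects differ between the systems was not tested. Species and tissue differ together, and the labels do not say how the mouse gene was deleted.

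**Figure D5:**
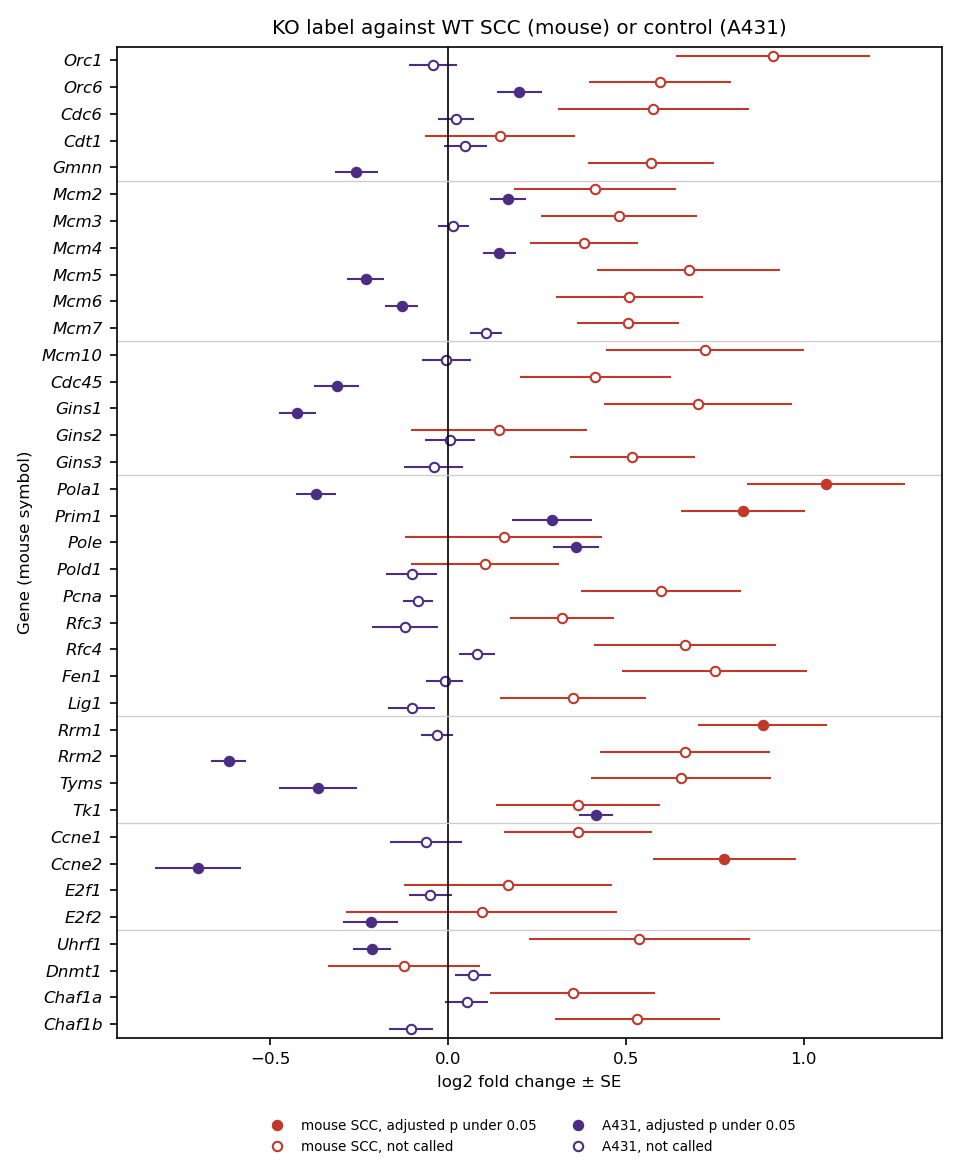
Log2 fold change with its standard error (horizontal axis) for each gene, in KO-labelled mouse SCC against WT SCC (red) and in A431 DUSP1 KO against control (purple), filled where the adjusted p was under 0.05. The mouse points lie right of 0 for all genes but Dnmt1, and the A431 points lie on both sides, with Ccne2 and Rrm2 farthest left and Tk1 farthest right.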

How the data were processed

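Poly(A) RNA was sequenced in 17 libraries with a stranded kit, per the labels' protocols. The authors deposited raw read counts per gene, 1 table for mouse and 1 for human. HISAT2, StringTie and DESeq with mm10 and hg38 are named in the submitters' processing notes. The counting rule and strand setting were not given in the sources used here. Genes that overlap others, such as Fen1, Mcm7 and Ccne2, or that have copies are therefore uncertain. Pcna-ps2 held 0.665 to 1.96 CPM.

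The tables held 55988 and 58958 features. Those without a name (1456 and 223, with 0.115 to 0.496% and 0.190 to 0.211% of counts) were left out. Replicate libraries differed beyond sampling noise (chi-square per degree of freedom 15.4 to 261 in mouse and 3.54 to 13.6 in A431), so none was counted as a repeat. The names of A431 KO replicates 2 and 3 in the labels end alike; their value was 5.14, against 13.6 and 12.3 with replicate 1, and both were kept. Counts were fitted per table with edgeR 4.0.16 in R 4.3.3 (default filter, TMM, quasi-likelihood test, two-sided), all 4 mouse groups together, with Benjamini-Hochberg adjustment over all genes. Biological coefficients of variation were 36.6% in mouse and 6.11% in A431. The alternatives were RLE factors, no filter, DESeq2 1.42.0, a replicate block, only the groups compared, and each library left out.

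Values by library are given for Mcm2, Pcna, Cdc6, Cdt1, Ccne1, Ccne2, E2f1, Rrm2, Uhrf1, Dnmt1 and Gmnn. They are also given for up to 5 of the largest rises and falls called per comparison. Mcm6, Orc1 and E2f2 were added after their values were seen. Other lists give up to 4 called genes by p; Pole3 and Mtbp complete a count. Some results are not reported here. The 37 genes and all lists were chosen with earlier results of these data known. Positions are from GENCODE M21 (GRCm38), and no human positions were used.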

Additional observations from a re-analysis of the deposited data

Results flagged for a closer look

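For 12 of the 37 genes every library labelled KO lay on the other side of its controls in the 2 systems: above all WT SCC libraries in mouse SCC and below all control libraries in A431. This was 32.4% of the set. Of the 11862 genes tested in both tables under the same symbol, 11.8% showed this and 8.54% the reverse. These shares depend on each comparison taken alone: 30 of the 37 lay above all WT SCC libraries and 13 below all A431 controls. Setting 32.4% beside 11.8% therefore does not show a link between the systems. The difference between the systems was not tested. The log2 fold changes, mouse first and A431 second, were 0.57 and −0.26 for Gmnn, 0.68 and −0.23 for Mcm5, 0.51 and −0.13 for Mcm6, 0.41 and −0.31 for Cdc45, 0.70 and −0.42 for Gins1, and 1.06 and −0.37 for Pola1. They were 0.60 and −0.084 for Pcna, 0.67 and −0.62 for Rrm2, 0.66 and −0.37 for Tyms, 0.78 and −0.70 for Ccne2, 0.54 and −0.21 for Uhrf1, and 0.53 and −0.10 for Chaf1b. Of these, 10 passed the test in A431, all but Pcna and Chaf1b, and Pola1 and Ccne2 passed it in mouse. Dusp1 RNA was lower in the A431 KO libraries and not in the mouse libraries labelled KO.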

How the results depend on the processing

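The number of genes of the set called in WT SCC against skin was 16 to 25 under the other settings and 14 to 29 with 1 library left out, and in KO-labelled papilloma against skin 23 to 29 and 21 to 32. None of these calls turned direction. In KO-labelled SCC against papilloma, 1 was called without the filter and 2 by DESeq2. In KO-labelled SCC against WT SCC, 4 became 7 without the filter, 13 with DESeq2, 20 in a fit of only the groups compared, 0 with the replicate block, and 0 to 3 with 1 library left out. In A431 the count was 14 to 17 under the other settings and 12 to 19 with 1 library left out. The replicate block changed no other count by over 1.5 times (19, 25, 0 and 15), and the numbers do not pair the libraries (correlations of deviations of same-numbered libraries −0.41 to 0.12). The call of Cdc6 in WT SCC and that of PRIM1 were also lost with the block. The share of all genes called was not counted under any alternative.

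Of genes given by library and called, 7 of 9 kept their call under every alternative in WT SCC, 8 of 12 in papilloma, 0 of 4 in KO-labelled SCC and 8 of 12 in A431. Some uncalled values changed sign with 1 library left out. E2f1 ranged from −0.105 to 0.378 in WT SCC against skin, −0.0975 to 0.384 in papilloma against skin, −0.0619 to 0.358 in KO-labelled SCC against papilloma and −0.0555 to 0.365 against WT SCC. In KO-labelled SCC against papilloma Mcm2 ranged from −0.00164 to 0.464 and Uhrf1 from −0.0803 to 0.159, and in A431 CDC6 ranged from −0.0102 to 0.0379 and was −0.00377 without the filter. The cause was not tested. RLE factors moved the median of all genes by at most 0.028. Genes near 1 CPM, such as Fen1 in skin, rest on the fewest counts.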
